A study of Rattus norvegicus with 4 samples.

Results

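This section describes the genes that mark blood vessels in the telencephalon, the front part of the embryonic forebrain, of rat embryos with and without Pax6, a paired-box transcription factor. The 41 genes were chosen by name: endothelial identity genes, receptors and ligands of vessel growth, endothelial transcription factors, and genes of pericytes, the contractile cells that sit on small vessels. Probe sets were taken as members where the platform annotation gave a listed gene as their single symbol. This gave 58 probe sets for 38 of the 41 genes, out of 14217 genes named on the array in all. Cd34, Robo4 and Pdgfb had no such probe set and were not analysed here. Another 3 genes, Acvrl1, Angpt2 and Edn1, were too dim to test. The remaining 35 genes had 45 tested probe sets, and each gene is represented by its brightest one unless another is named.

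Expression was measured on 4 one-colour Affymetrix arrays, 2 of Pax6 mutant (rSey2/rSey2) and 2 of wild-type telencephalon, all of Sprague-Dawley background and all dissected at E11.5, counted from midday of the plug as E0.5. The rSey2 allele is carried in every cell of the homozygous embryo, so vessels and brain tissue share the genotype. RNA came from 13 telencephalons and the experiment was repeated in each genotype. An array therefore stands for pooled embryos, and whether both arrays of a genotype had separate pools is unclear. Replicates are named as biological, with no litter given, and p-values reflect only the spread among these 4 arrays, which may in part be technical. The labels describe dissected telencephalon and mention no sorting of vessel cells. More cells of a type and more RNA per cell therefore cannot be told apart.

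Values are GCRMA values on the log2 scale as the authors deposited them, where a difference of 1 is a 2-fold change. The median over tested probe sets lay between 8.22 and 8.35 on the 4 arrays. Probe sets with a mean under 3.21, the 40th percentile, were left out as dim. The precision is limited by having 2 arrays per genotype. The Pax6 probe set stood at 11.78 and 11.63 in the mutant arrays, against 11.75 and 11.85 in the wild-type arrays, a difference of -0.09 (SE 0.10). It was not used as a check of the genotype.

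The early brain has no vessels of its own. Endothelial cells form a plexus around the neural tube and sprout into the neuroepithelium, drawn by VEGF made by the progenitors and read through the receptor Kdr on the sprouting cells. Wnt7a and Wnt7b from the neuroepithelium act through the endothelial co-receptor Adgra2 and Reck to bring vessels in and to start the blood-brain barrier. Pericytes follow, recruited by PDGF-B through Pdgfrb.

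Endothelial signal was read from 12 markers. All of them except Cdh5 are members themselves, so they are no independent check of the label. Of these, 10 (Pecam1, Kdr, Tek, Tie1, Flt1, Cldn5, Esam, Egfl7, Eng and Emcn) were above the dim level, while Cd34 and Cdh5 had no probe set of their own here. Endothelial transcripts were thus measured in both genotypes. Among 8 mural markers, 5 were tested and 3, the pericyte genes Abcc9, Cspg4 and Kcnj8, were dim. The mural members Rgs5, Mcam and Pdgfrb therefore stood without those defining pericyte genes.

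To show the regulatory sequence next to genes whose values are given below, the 250 bases before the RefSeq start are printed for 3 members. Plvap had the largest difference upwards in the mutant, Kdr is the receptor that reads VEGF, and S1pr1 was the tested member whose mutant arrays both lay below the wild-type arrays. Sequences are from RefSeq, build GRCr8, 5′ to 3′ on the gene's strand, in lower case. Capitals mark a match to a short ETS motif (CCGGAA) or SOX motif (ACAATG or ACAAAG), read on both strands.
Plvap, chr16:18231280-18231529, minus strand: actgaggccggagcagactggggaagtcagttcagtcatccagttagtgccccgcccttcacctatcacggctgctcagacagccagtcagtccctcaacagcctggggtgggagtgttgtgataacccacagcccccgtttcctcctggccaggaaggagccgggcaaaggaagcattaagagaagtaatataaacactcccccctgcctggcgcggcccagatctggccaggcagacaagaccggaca
Kdr, chr14:32571813-32572062, plus strand: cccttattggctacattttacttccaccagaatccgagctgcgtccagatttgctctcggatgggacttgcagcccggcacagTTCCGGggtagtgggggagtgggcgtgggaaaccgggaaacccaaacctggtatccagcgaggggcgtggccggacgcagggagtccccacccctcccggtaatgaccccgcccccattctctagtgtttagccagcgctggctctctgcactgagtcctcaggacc
S1pr1, chr2:206314071-206314320, minus strand: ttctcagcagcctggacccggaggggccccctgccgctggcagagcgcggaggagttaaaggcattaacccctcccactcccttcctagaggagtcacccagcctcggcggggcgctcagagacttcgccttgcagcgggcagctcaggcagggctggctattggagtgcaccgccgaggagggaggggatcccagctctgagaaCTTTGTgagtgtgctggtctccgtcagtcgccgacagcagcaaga

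A promoter was found for 19 of the 35 tested members. The ETS motif was in 2 of them (10.5%), Kdr and Gja4, against 12.6% of 33360 distinct windows of the same length over all RefSeq genes. The SOX motif was in 6 (31.6%), Apln, Eng, Erg, Nos3, S1pr1 and Tie1, against 25.3% of all windows. A GATA motif (AGATAA) was found in 1 member (5.26%), Erg, and in 10.3% of all windows. The hypoxia motif ACGTG was found in 0 members and in 16.6% of all windows. Matches of different motifs may overlap, since a SOX match can run into a GATA match, and a match describes only the letters in this window. The window printed for Plvap held none of the 4 motifs.

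Taken gene by gene, no member differed beyond the array spread after correction. Most values were nevertheless on the higher side in the mutant: 27 of 35 tested members (77.1%) had a higher mean in the mutant, 7 a lower one and 1 the same value on all arrays. Among all 9840 tested genes 49.7% were higher and 49.1% lower. The median difference over the members was 0.15, mutant minus wild type, against 0.00 over all tested genes, and single members ran from -0.56 (S1pr1) to 0.65 (Plvap). These 2 members differed by at least 0.5 in either direction, as did 3.35% of all tested genes. Both mutant arrays lay above both wild-type arrays for 10 members (28.6%), where 12.2% of all tested genes did so. Both lay below for 1 member (2.86%), against 12.1% of all tested genes. The members and lists were chosen with earlier results of these data known, so these shares carry no test.

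In limma with Benjamini-Hochberg adjustment over all 18625 tested probe sets, 0 member probe sets passed an adjusted p of 0.05, and 0% of all tested probe sets did. At an unadjusted p under 0.05 there were 4 member genes, Plvap, Sox18, Ets1 and S1pr1. These were 11.4% of the members, beside 3.59% of all tested genes and 3.65% of all tested probe sets. With 2 arrays on each side, the smallest two-sided p of an exact permutation test is 0.333, and that test was not used. The share of higher members depended on mutant replicate 2. Without that array 19 of 35 members (54.3%) were higher, against 42.9% of all tested genes in the same setting. The member median was then 0.025, against -0.02 over all genes. Without mutant replicate 1 the median was 0.24, and without wild-type replicate 2 it was also 0.24. In each of these settings the median over all genes was 0.02.

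**Figure D1:**
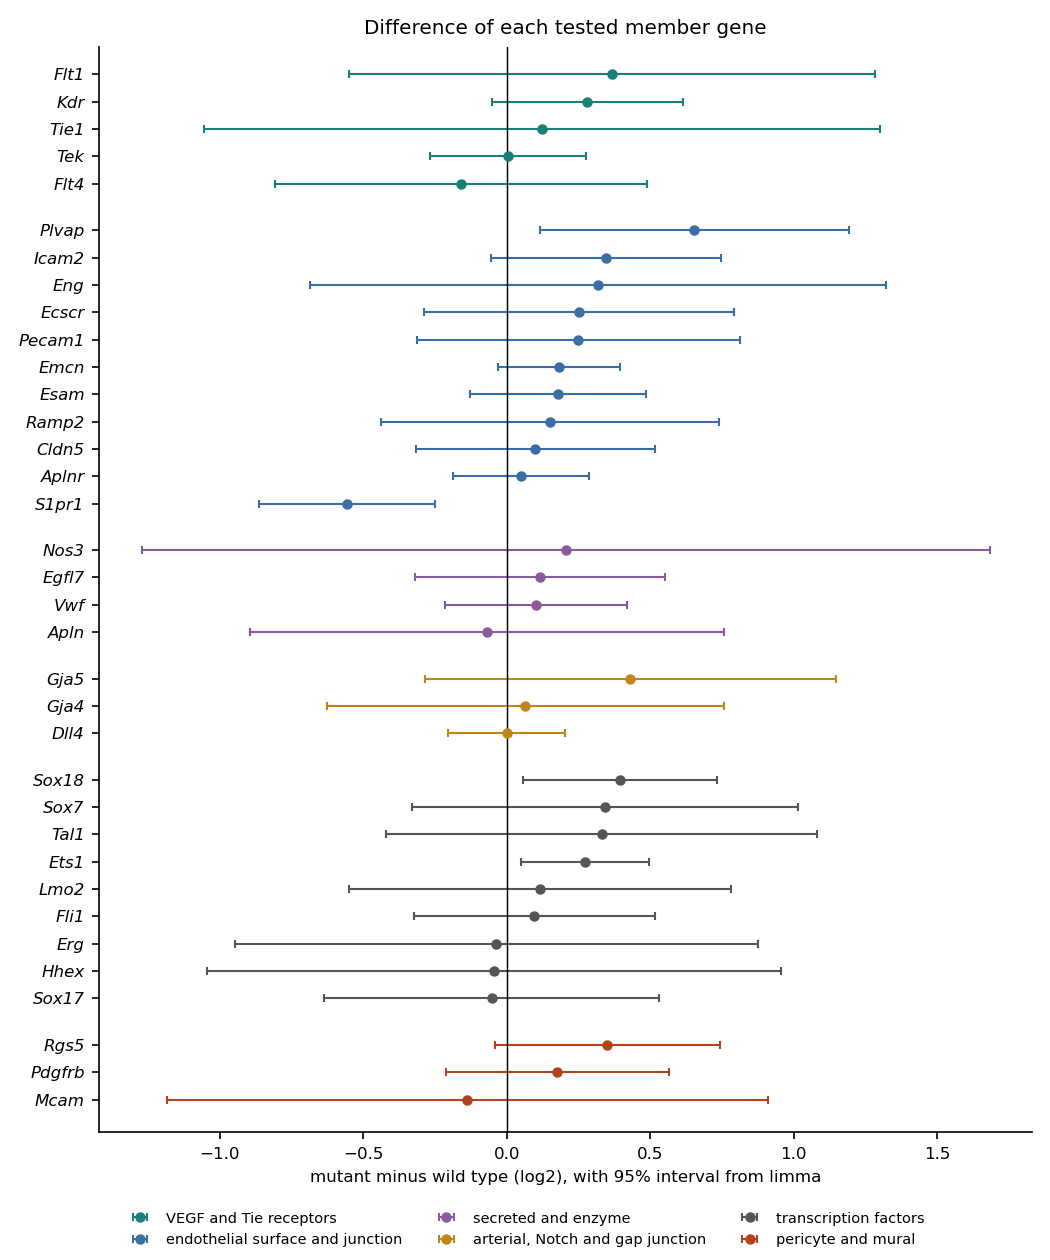
Each point is the difference of 1 tested member gene, mutant minus wild type in log2 units, grouped by role, with the 95% interval from limma (2 arrays per genotype). Intervals of Plvap, Sox18, Ets1 and S1pr1 exclude 0 before correction, and those of Nos3, Tie1 and Mcam are the widest shown.

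Among the receptors of vessel growth, Kdr (VEGF receptor 2, the main signalling receptor of sprouting endothelium) was at 10.74 and 10.94 in the mutant arrays, against 10.60 and 10.52 in the wild-type arrays. The groups did not overlap, and the difference of 0.28 (SE 0.11) is a 1.21-fold higher value with a 95% interval from -0.05 to 0.61 (limma adjusted p = 1). Flt1, a receptor that binds VEGF and limits what reaches Kdr, stood at 4.38 and 5.06 in the mutant arrays and at 4.20 and 4.51 in the wild-type arrays. Its groups overlapped, with a difference of 0.37 (SE 0.30). A dimmer Flt1 probe set differed by 0.14 (SE 0.10) without overlap. Another was under the dim level on both wild-type arrays and on mutant replicate 2. It passed the filter only through mutant replicate 1, so its difference is not used. Flt4, the receptor for VEGF-C, differed by -0.16 (SE 0.21) and its groups overlapped.

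The angiopoietin receptor Tek stood at 7.85 and 8.001 in the mutant arrays, against 7.91 and 7.93 in the wild-type arrays. This is a difference of 0.00 (SE 0.09) with an interval from -0.27 to 0.27. Its partner Tie1 was at 5.70 and 6.44 in the mutant arrays and at 5.63 and 6.26 in the wild-type arrays. For Tie1 the arrays numbered 2 were the higher in both genotypes, and the genotype difference of 0.12 (SE 0.39) was smaller than that between the arrays of a genotype. In all, 4 of 5 VEGF and Tie receptors had a higher mean in the mutant, and 1 (20%), Kdr, did so without overlap, beside 12.2% of all tested genes.

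Surface and junction proteins held the largest differences. Plvap, which forms the diaphragms of fenestrated and immature endothelium and is lost as the blood-brain barrier matures, was at 8.48 and 8.83 in the mutant arrays, against 7.89 and 8.11 in the wild-type arrays. Both mutant arrays were higher, by 0.58 within the arrays numbered 1 and by 0.72 within those numbered 2. The difference of 0.65 (SE 0.18) is a 1.57-fold higher value, with an interval from 0.11 to 1.19, and did not pass over all probe sets (limma adjusted p = 1; 0.47 to 0.83 with 1 array left out).

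Icam2, an adhesion molecule of endothelial cells, stood at 5.85 and 6.07 in the mutant arrays and at 5.52 and 5.71 in the wild-type arrays. Emcn, the sialomucin endomucin, was at 9.38 and 9.42 in the mutant arrays, against 9.22 and 9.22 in the wild-type arrays. Esam, an adhesion protein of tight junctions, was at 7.32 and 7.49 in the mutant arrays, against 7.18 and 7.27 in the wild-type arrays. These 3 genes did not overlap between genotypes, with differences of 0.35 (SE 0.13) for Icam2, 0.18 (SE 0.07) for Emcn and 0.18 (SE 0.10) for Esam. Emcn had the smallest spread between arrays of a genotype in this trio.

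S1pr1, a receptor for sphingosine-1-phosphate that stabilises endothelial junctions and is also known from neural progenitors of the mouse telencephalon, was lower in the mutant. It was at 9.23 and 9.11 in the mutant arrays, against 9.80 and 9.65 in the wild-type arrays. Both mutant arrays were lower, by 0.57 within number 1 and 0.54 within number 2. The difference of -0.56 (SE 0.10), 1.47-fold lower, had an interval from -0.86 to -0.25 and did not pass over all probe sets (limma adjusted p = 1). Its second probe set was at the lowest value of the table on all arrays and measures nothing.

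The other surface genes overlapped between the genotypes. Pecam1, the adhesion molecule CD31, stood at 5.87 and 5.44 in the mutant arrays, against 5.37 and 5.44 in the wild-type arrays, so mutant replicate 1 stood above the other 3 arrays, with a difference of 0.25 (SE 0.18). Cldn5, the claudin of brain endothelial tight junctions, was at 9.06 and 9.36 in the mutant arrays, against 9.12 and 9.10 in the wild-type arrays, and there the higher array was mutant replicate 2. Eng, a TGF-beta co-receptor, differed by 0.32 (SE 0.33), Ecscr, an endothelial surface regulator, by 0.25 (SE 0.18) and Ramp2, the partner of the adrenomedullin receptor, by 0.15 (SE 0.19). The apelin receptor Aplnr differed by 0.05 (SE 0.08), while its dimmer probe set differed by 0.67 (SE 0.41), with overlap. Acvrl1, a receptor of the same pathway as Eng, was dim, at 2.27 and 2.37 in the mutant arrays and at 2.15 and 2.27 in the wild-type arrays. Over this role, 10 of 11 tested genes had a higher mean in the mutant, against 49.7% of all tested genes. Of the 11 genes, 4 (36.4%) were higher without overlap and 1 (9.09%), S1pr1, was lower without overlap, beside 12.2% and 12.1% of all tested genes.

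**Figure D2:**
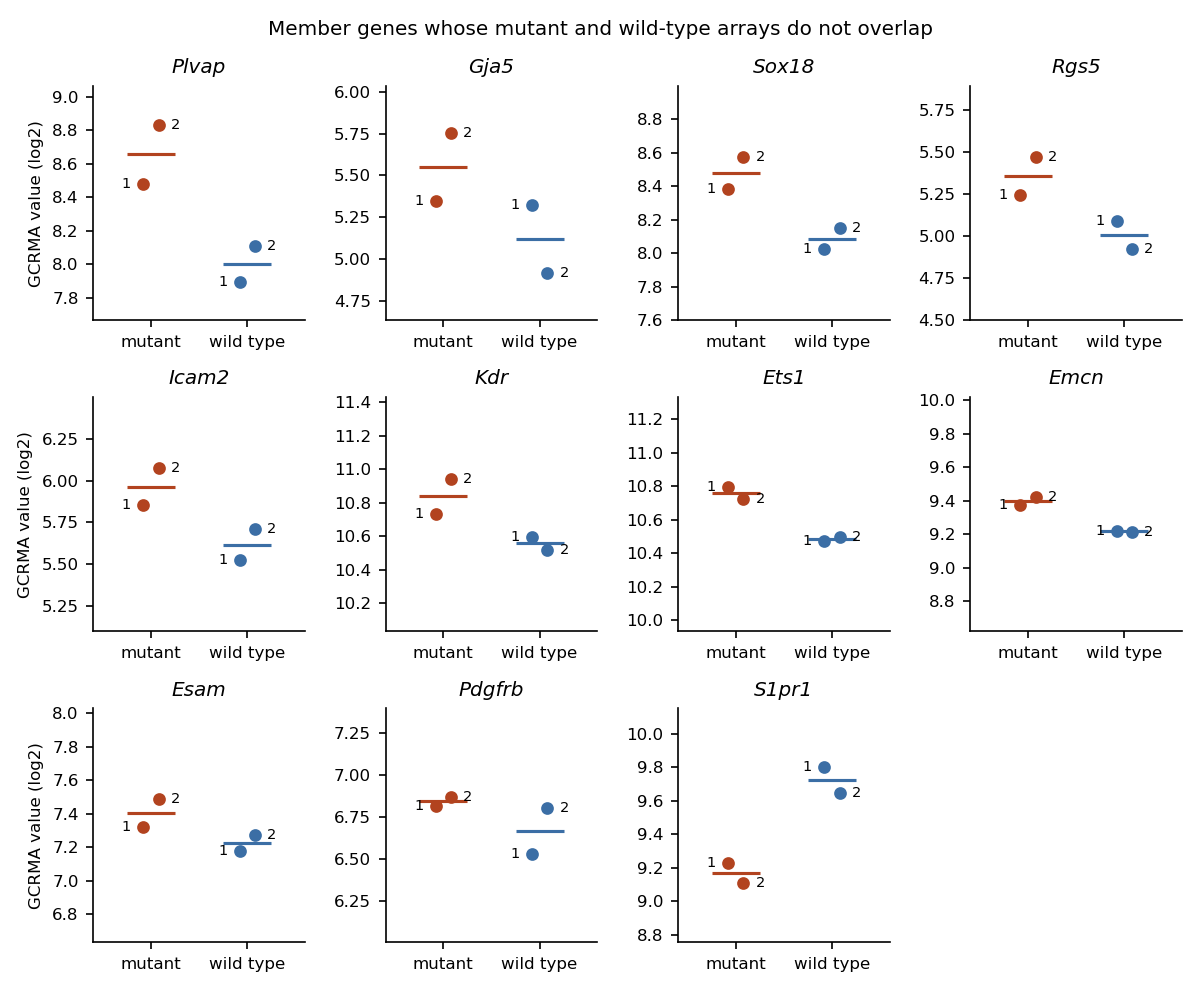
Values of the 11 members whose mutant arrays (left, red) and wild-type arrays (right, blue) do not overlap, as GCRMA values on the log2 scale, with the replicate number beside each point and the mean as a line; each vertical axis spans 1.4 log2 units. Plvap and S1pr1 show the widest gaps, upwards and downwards, and the closest arrays of Gja5 and of Pdgfrb lie within 0.03 of each other.

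Secreted factors and enzymes showed no gene without overlap. Apln, the apelin ligand made by sprouting tip cells, was at 7.59 and 8.10 in the mutant arrays, against 7.69 and 8.13 in the wild-type arrays, a difference of -0.07 (SE 0.27). A dimmer Apln probe set was at 5.72 and 5.91 in the mutant arrays, against 6.08 and 6.31 in the wild-type arrays, without overlap and with a difference of -0.38 (SE 0.13). Both Apln probe sets were thus lower on average, by unequal amounts.

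Egfl7, a secreted protein of growing vessels, differed by 0.12 (SE 0.14) and by 0.18 (SE 0.30) on its 2 probe sets. Nos3, the endothelial nitric oxide synthase, was at 3.67 and 4.73 in the mutant arrays and at 3.68 and 4.30 in the wild-type arrays, so the spread within a genotype exceeded the difference of 0.20 (SE 0.48). Vwf, von Willebrand factor, stood at 4.53 on 3 arrays, with 4.74 on mutant replicate 2. Dll4 likewise repeated 1 exact value over arrays, as given below. Angpt2, the angiopoietin of remodelling vessels, and Edn1, endothelin, were dim on all arrays.

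Of the arterial genes, Gja5 (connexin 40, a gap junction protein of arterial endothelium) was at 5.34 and 5.75 in the mutant arrays, against 5.32 and 4.92 in the wild-type arrays. The groups did not overlap, but the difference within the arrays numbered 1 was 0.02 and within those numbered 2 it was 0.84. The difference of 0.43 (SE 0.24) ran from 0.23 to 0.63 with 1 array left out. Gja4, connexin 37, differed by 0.06 (SE 0.23) with overlap. Dll4, the Notch ligand of tip cells and arteries, had 3.91 on all 4 arrays, so no difference could be measured.

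Transcription factors of the endothelium are given by family. Sox18, an SRY-related factor of developing vessels, was at 8.39 and 8.57 in the mutant arrays, against 8.02 and 8.15 in the wild-type arrays. The difference of 0.39 (SE 0.11), 1.31-fold higher, had an interval from 0.06 to 0.73 (limma adjusted p = 1). Its relative Sox7 was at 7.44 and 6.94 in the mutant arrays and at 6.94 and 6.76 in the wild-type arrays, with touching groups and a difference of 0.34 (SE 0.22). Sox17, the third member of this SoxF group, differed by -0.05 (SE 0.19), with 7.20 and 7.34 in the mutant arrays against 7.54 and 7.10 in the wild-type arrays. Sox18 was thus the SoxF gene without overlap. A test of the difference between these genes was not made.

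Ets1, an ETS factor of endothelium that is also present in mesenchyme and neural crest, was at 10.79 and 10.72 in the mutant arrays, against 10.47 and 10.50 in the wild-type arrays. The difference of 0.27 (SE 0.07) was 1.21-fold, with little spread in either genotype and an interval from 0.05 to 0.50 (limma adjusted p = 1). The ETS relatives Fli1 and Erg overlapped: 3 Fli1 probe sets differed by 0.10, 0.12 and 0.03, and the brighter Erg probe set by -0.04 (SE 0.30). Erg stood at 6.49 and 7.24 in the mutant arrays, on either side of the wild-type values of 6.90 and 6.90.

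Tal1, a factor shared by blood and endothelial precursors, was at 7.52 and 8.04 in the mutant arrays, against 7.29 and 7.61 in the wild-type arrays. Within number 1 it differed by 0.23 and within number 2 by 0.43, but the groups overlapped (difference 0.33, SE 0.25). Its binding partner Lmo2 differed by 0.12 (SE 0.22) and the homeobox factor Hhex by -0.04 (SE 0.33), both with overlap. Of the 9 tested factors, 6 had a higher mean in the mutant and 2 (22.2%), Sox18 and Ets1, did so without overlap, beside 12.2% of all tested genes.

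Among the mural genes, Rgs5, a regulator of G-protein signalling known as a pericyte marker, was at 5.24 and 5.47 in the mutant arrays, against 5.09 and 4.92 in the wild-type arrays. The difference of 0.35 (SE 0.13) came without overlap. Pdgfrb, the PDGF-B receptor of pericytes and of other mesenchyme, was at 6.82 and 6.87 in the mutant arrays, against 6.53 and 6.80 in the wild-type arrays, and differed by 0.18 (SE 0.13). Its dimmer tested probe set differed by 0.03 (SE 0.12) with overlap. The 2 probe sets of Mcam, the adhesion molecule CD146 of endothelium and pericytes, disagreed in sign: the brighter differed by -0.14 (SE 0.34) and the other by 0.40 (SE 0.32), both with overlap.

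The genotype difference was also read within each replicate number. Set against the wild-type array of the same number, 24 of 35 members were higher in mutant replicate 1 and 27 in mutant replicate 2, with medians of 0.14 and 0.20. In both numbers 19 members (54.3%) were higher, against 26.2% of all tested genes, and 2, S1pr1 and Apln, were lower, against 25.3% of all tested genes. Over the 35 members the differences within number 1 and number 2 had a Pearson correlation of 0.35. Over all 9840 tested genes it was also 0.35, the same value as for the members. Genes are not independent replicates, and the arrays were normalized together.

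**Figure D3:**
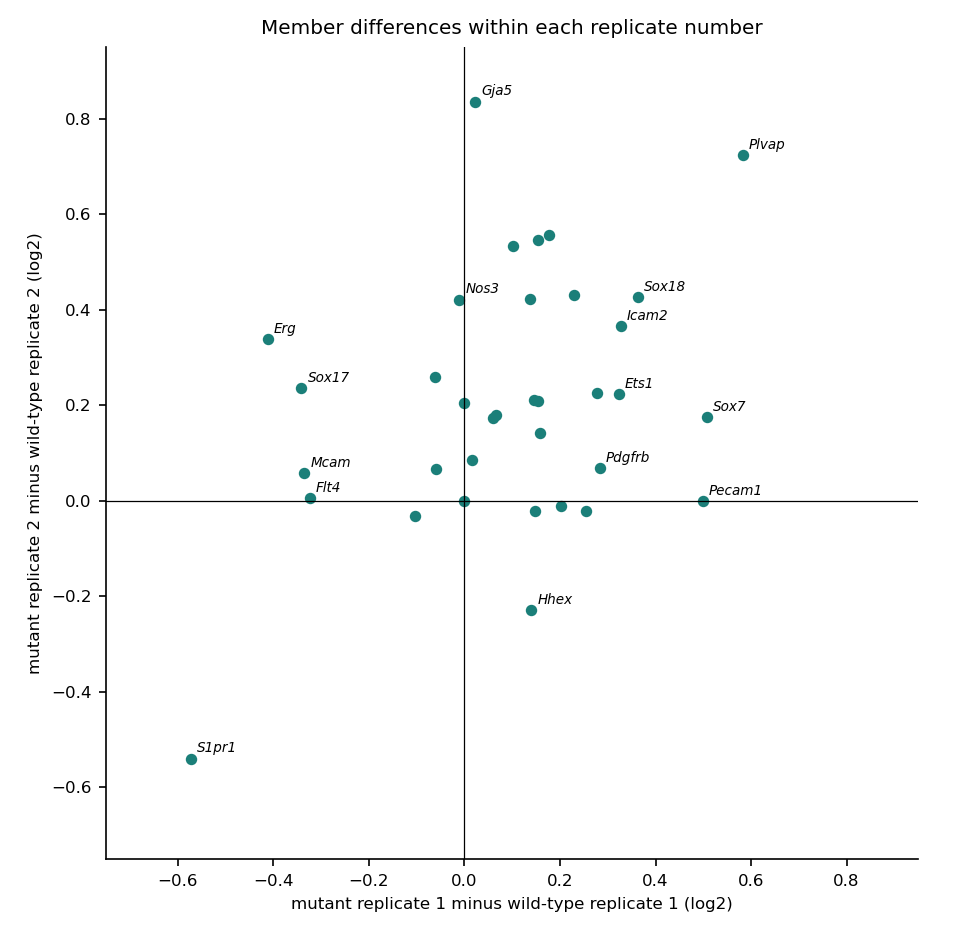
Each point is 1 tested member gene, with the mutant minus wild-type difference (log2) of the arrays numbered 1 on the horizontal axis and of those numbered 2 on the vertical axis. Of 35 members, 19 lie above 0 on both axes and S1pr1 lies alone far down on the left; Gja5 has 0.02 on the one axis and 0.84 on the other.

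Endothelial and mural genes outside the members showed a smaller share of higher values. Of 25 tested endothelial genes that are not members, 15 (60%) had a higher mean in the mutant, with a median of 0.06. Among them 4 were higher and 3 lower without overlap, which is 16% and 12%, beside the 12.2% and 12.1% of all genes. The largest difference was that of Heg1, a transmembrane protein that stabilises endothelial junctions. Heg1 was at 10.03 and 10.18 in the mutant arrays, against 10.44 and 10.84 in the wild-type arrays, a difference of -0.54 (SE 0.18), with -0.65 on its other probe set. Exoc3l2 differed by 0.50 (SE 0.65) and Rasgrp3, an exchange factor for Ras in endothelium, by 0.47 (SE 0.14). Of 8 tested mural genes outside the members, 4 were higher and 3 lower on average. The largest differences there were those of Foxc1, Tagln and Des. Foxc1, also on the mesenchyme list, differed by -0.32 (SE 0.51) with overlap. The smooth muscle protein gene Tagln differed by 0.28 (SE 0.16) without overlap. Desmin, Des, differed by 0.27 (SE 0.22), with 4.07 on mutant replicate 1 and 3.53 on each other array.

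Genes that call vessels into the brain were spread on both sides. Of 32 tested cues and partners, 19 had a higher and 12 a lower mean, with a median of 0.03. Without overlap 6 (18.8%) were higher and 2 (6.25%) lower, beside 12.2% and 12.1% of all tested genes. The ligand Vegfa was at 8.63 and 8.72 in the mutant arrays, against 8.50 and 8.64 in the wild-type arrays, overlapping and differing by 0.10 (SE 0.09). Vegfc differed by 0.25 (SE 0.10) without overlap. The Wnt7a co-receptors Adgra2 (0.05, SE 0.10) and Reck (-0.10, SE 0.09) overlapped between genotypes.

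Wnt7a itself was at 2.74 on both mutant arrays, under the dim level, against 4.32 and 5.87 in the wild-type arrays. It passed the filter only through the wild-type arrays. The mean of its wild-type arrays lay 3.68-fold above the dim level, which sets no bound on the fold change. The genotype difference did not pass over all probe sets (limma adjusted p = 1). A dimmer Wnt7a probe set, close to the dim level, was at 3.33 and 2.66 in the mutant arrays, against 3.73 and 3.34 in the wild-type arrays. Its difference was -0.54 (SE 0.31). The groups did not overlap, but their closest arrays stood at 3.3296 and 3.3355. The mutant mean of this probe set, 2.995, lay under the dim level. Epas1, the hypoxia-inducible factor 2-alpha of endothelium, was at 8.83 and 9.27 in the mutant arrays and at 8.36 and 8.64 in the wild-type arrays (0.55, SE 0.22). Plxnd1, the endothelial semaphorin receptor, was at 7.41 and 7.41 in the mutant arrays, against 7.005 and 6.89 in the wild-type arrays (0.46, SE 0.08; limma adjusted p = 1). Both Epas1 and Plxnd1 were without overlap.

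Blood-brain barrier genes had 8 of 13 higher means and a median of 0.07. The thyroid hormone transporter Slco1c1 was at 6.18 and 6.01 in the mutant arrays, against 5.17 and 5.66 in the wild-type arrays (0.68, SE 0.22). The glucose transporter Slc2a1, which brain endothelium and neuroepithelium both use, was lower at 11.67 and 12.07 in the mutant arrays, against 12.14 and 12.39 in the wild-type arrays (-0.40, SE 0.20). The amino acid transporter Slc7a5 differed by 0.28 (SE 0.41). The barrier genes Abcb1a, Cldn3, Cav1 and Foxq1 were dim in these arrays.

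Erythroid and platelet markers were also on the higher side in the mutant, and their part in the values of the vessel genes was not tested. Of 22 tested erythroid genes, 20 had a higher mean in the mutant, with a median of 0.42. Of the 22, 16 (72.7%) were higher without overlap, beside 12.2% of all tested genes. Their summed linear signal was 120302 and 117954 in the mutant arrays, against 103255 and 103015 in the wild-type arrays. The embryonic globins Hbe1, Hbg1 and Hbz made up 94.1% to 95.1% of that sum on every array. The other 19 genes summed to 7072 and 6806 in the mutant arrays, against 5018 and 5562 in the wild-type arrays. Slc4a1, the red cell anion exchanger, differed by 0.94 (SE 0.32), and by 0.52 (SE 0.14) on its dimmer probe set. Hemgn, a nuclear protein of blood precursors, differed by 0.83 (SE 0.08). The blood group gene Kel was under the dim level on both wild-type arrays and passed the filter only through the mutant arrays. Its mutant arrays, at 4.20 and 3.69, had a mean 1.66-fold above that level, which sets no bound on the fold change. Its dimmer probe set was at 3.32 on mutant replicate 1 and both wild-type arrays, and at 3.33 on mutant replicate 2. That is a difference of 0.008 (SE 0.07). The erythroid marker Epb42 was dim.

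All 4 tested platelet and megakaryocyte genes had a higher mean, with a median of 0.24 and the largest values for Itgb3 (0.28), Itga2b (0.24) and Tubb1 (0.24). The summed signal of these genes was 990 and 793 in the mutant arrays, against 756 and 774 in the wild-type arrays. Pf4, the brightest of them, weighs most in that sum. It was at 9.525 and 8.84 in the mutant arrays, against 8.99 and 9.06 in the wild-type arrays (0.16, SE 0.28, with overlap). Myeloid genes were mostly unmeasured: 16 of 20 were dim, among them Csf1r, Aif1, Cx3cr1 and Ptprc. The 4 tested ones had a median of -0.12, led by Lyve1, Coro1a and Cd68. Lyve1, also on the list of other endothelial genes, differed by -0.37 (SE 0.34) with overlap and was highest on wild-type replicate 1. Coro1a differed by -0.15 (SE 0.14) with overlap. Cd68 differed by -0.09 (SE 0.10), with 3.69 on wild-type replicate 2 and 3.50 on each other array.

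Mesenchyme and meningeal markers were on both sides, with 6 higher and 9 lower of 15 and a median of -0.07. The homeobox gene Prrx2 differed by 0.58 (SE 0.14) without overlap. Foxc2 differed by 0.54 (SE 0.45) with overlap. It was at 4.03 and 5.15 in the mutant arrays, against 4.02 and 4.08 in the wild-type arrays, so mutant replicate 2 carried its difference. The matrix gene Postn was under the dim level on both mutant arrays and passed the filter only through the wild-type arrays. Its wild-type arrays, at 3.82 and 4.87, had a mean 2.19-fold above that level, which sets no bound on the fold change. Their summed signal was 19350.5 and 19318.8 in the mutant arrays, against 20568.9 and 19958.4 in the wild-type arrays. Neuroepithelial markers had 10 of 14 higher means (71.4%, median 0.03), against 49.7% of all tested genes. Their largest differences were those of Lhx2 (0.30), Sox3 (-0.28) and Otx2 (0.24). The summed signal of the neuroepithelial markers was also higher in the mutant arrays, at 65395 and 64440, against 60491 and 60762 in the wild-type arrays. The summed signal of the 35 members was 10309.6 and 11113.5 in the mutant arrays, against 9526 and 9702 in the wild-type arrays. Kdr and Ets1 were the brightest members and weigh most in this linear sum, so it does not describe the members evenly.

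**Figure D4:**
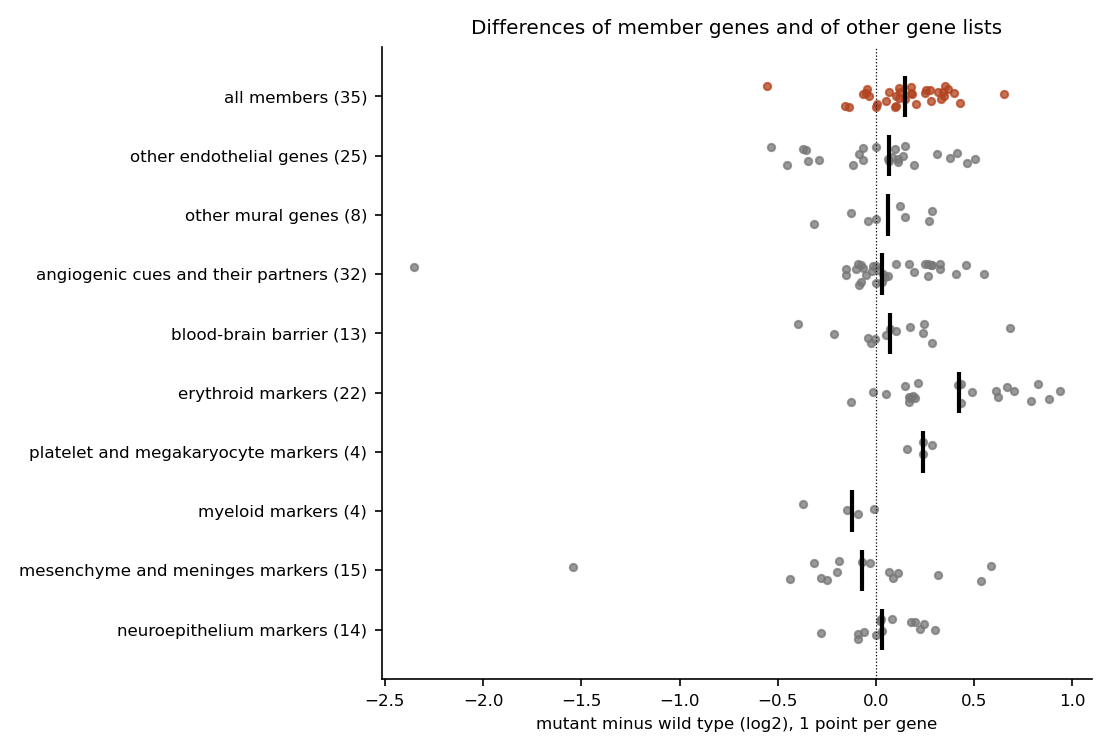
Each point is the difference of 1 tested gene, mutant minus wild type in log2 units, for the members and for 9 other lists, with the number of tested genes in brackets and the median as a black bar. The median is 0.15 for the members, 0.06 for other endothelial genes and 0.42 for erythroid markers; the point far left among the cues is Wnt7a, whose mutant values lie under the dim level.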

How the data were processed

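Total RNA of telencephalon was labelled and hybridised to 4 Affymetrix rat arrays. The authors deposited log2 values, and the submitters' processing notes name GCRMA as the tool; version, build and annotation are not given in the sources used here. That the scale is log2 was judged from the range, 2.07 to 16.13. Values were not normalized again. Of 31099 probe sets, 57 controls were left out. The platform annotation gave 1 symbol to 20826 of the remaining 31042, several to 436 and none to 9780. For all 58 member probe sets the Entrez ID gave the same symbol in RefSeq.

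Probe sets with a mean under the 40th percentile were left out as dim (12417), and 18625 were tested with limma 3.58.1 in R 4.3.3 (lmFit and eBayes, genotype as single term, Benjamini-Hochberg over all tested probe sets, threshold 0.05). The script was tested on simulated data. Per-array values were named for members without overlap or differing by at least 0.5, with further members added after their values were seen. Of each other list up to 3 genes with the largest difference were named. Vegfa, Vegfc, Adgra2 and Reck were added for their role, and Pf4 and the embryonic globins for their weight in a sum. Members and lists were chosen with earlier results of these data known. Alternatives were the dim filter, a pseudocount of 16, quantile normalization, median centring, a replicate block, each array left out, the mean over a gene's probe sets and, added after seeing the data, leaving out probe sets with the same value on all 4 arrays.

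Replicate numbers are shared by the genotypes, but the labels do not tie them to a litter or day, so they were not treated as pairs. Promoter motifs were matched as exact letters on both strands. The array table names no build, so coordinates are printed only for the 3 RefSeq promoter windows.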

Additional observations from a re-analysis of the deposited data

How the results depend on the processing

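Member probe sets past the adjusted threshold numbered 0 under every alternative run. At an unadjusted p under 0.05 in limma there were 4 of 45 as reported, beside 680 of all 18625 tested probe sets. Under the replicate block there were 10 of 45, beside 1194 of 18625. Over all probe sets the count past the adjusted threshold was 0 as reported and 1 with the stricter filter. It was 2 after quantile normalization, 2 after median centring and 2 without probe sets that hold 1 value on all arrays. The replicate block left all differences as they were and called 0 probe sets. Replicate 2 minus replicate 1 correlated between the genotypes across probe sets (r = 0.435), a hint from the data and not from the design. With the stricter filter, which tests fewer genes, 15 of 19 members were higher in the mutant, beside 49.1% of all genes. With 1 array left out, 19 to 30 of 35 members were higher, beside 42.9% to 56.1% of all genes. Over the same 4 settings the member median ran from 0.025 to 0.24, beside -0.02 to 0.02 over all genes. The cause was not tested. The lowest adjusted p of any member over all alternatives was 0.727.

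For 16 members the direction turned when 1 array was left out. Their differences ran from -0.32 to 0.19 for Apln, -0.051 to 0.25 for Cldn5, -0.043 to 0.28 for Egfl7, -0.0615 to 0.70 for Eng, -0.41 to 0.34 for Erg, -0.052 to 0.24 for Fli1, -0.40 to 0.086 for Flt4, -0.17 to 0.30 for Gja4, -0.41 to 0.32 for Hhex, -0.10 to 0.33 for Lmo2, -0.52 to 0.25 for Mcam, -0.32 to 0.73 for Nos3, -0.018 to 0.32 for Ramp2, -0.27 to 0.17 for Sox17, -0.070 to 0.077 for Tek and -0.25 to 0.49 for Tie1. Without mutant replicate 2 the difference of Vwf was 0. With 1 array left out, the lone array is assumed to vary like the other genotype. Under the mean over a gene's probe sets Erg turned to 0.019 and Mcam to 0.13; no direction turned under another alternative.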
